A study of Mus musculus with 12 samples.

Results

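The genes described here are 9 genes of the pathway that makes glycosylphosphatidylinositol (GPI) anchors and attaches them to proteins, namely Piga, Pigh, Pigm, Pigx, Pigf, Pigk, Gpaa1, Pigs and Pigt. They were found by symbol, and all 9 are among the 41709 genes counted in the series. Pigx was chosen by its read counts, which were higher in CD18-deficient cells in these same libraries, so its differences between groups are described without a test. Pigm was taken as the partner of Pigx, and the other members as further genes of the pathway. All 9 passed the filter on low counts in each comparison.

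A GPI anchor is a glycolipid that is assembled in the membrane of the endoplasmic reticulum and then joined to the carboxyl end of a protein, which it holds at the cell surface. Assembly begins with the transfer of N-acetylglucosamine to phosphatidylinositol, continues with the addition of mannose and of ethanolamine phosphate, and ends with the transamidase that cuts the protein and attaches the finished anchor. PIGX is a membrane protein that stabilizes PIGM, the enzyme that adds the first mannose. On dendritic cells, GPI anchors carry the LPS co-receptor CD14, CD48, CD24 and members of the LY6 family.

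RNA-seq was performed on MHCII+ bone marrow-derived dendritic cells (BMDCs), differentiated from mouse bone marrow for 10 days in medium with GM-CSF. All mice were homozygous for a floxed allele of CD18 (gene Itgb2, the shared beta chain of the β2 integrins). Control cells (CD18fl/fl, labelled fl/fl Cre-) carried no Cre, and CD18CD11c cKO cells (labelled fl/fl Cre+, CD18ΔCD11c) expressed Cre from the CD11c promoter, which deletes exon 3 in cells that use that promoter. Cells of each genotype were left untreated or stimulated for 24 h with 100 ng/mL lipopolysaccharide (LPS), with 3 libraries in each of 4 groups. The age of the mice and whether replicates came from separate animals are not given in the labels, so p-values measure the spread between these libraries, which may be technical.

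Each library held 29689149 to 34037178 gene reads, and no 2 of the 12 libraries held the same counts. Levels are given as CPM, read counts scaled by TMM-normalized library size, on which 3 reads correspond to 0.0752 to 0.135 CPM. Itgb2 in untreated CD18fl/fl replicates 1, 2 and 3 stood at 382, 420.2 and 379 CPM, against 120.5, 163 and 189 CPM in CD18CD11c cKO cells. With LPS, it stood at 167, 171 and 267 CPM in CD18fl/fl and at 114, 89.7 and 119 CPM in CD18CD11c cKO cells. The genotypes did not overlap in either state, with log2 differences of -1.26 ± 0.23 (SE) and -0.93 ± 0.29, so every library sat on the side of its label. Reads were counted over the whole gene, so a transcript without exon 3 still gives Itgb2 reads. The summed level of 9 dendritic cell markers was 13366 to 33965 CPM over the 12 libraries, against at most 1759 CPM for 7 macrophage markers and 1696 CPM for 9 neutrophil markers. Most of the dendritic cell sum came from H2-Ab1, H2-Aa, Cd74 and Ccr7, and the cells had been selected for MHCII. These sums therefore cannot rank the cell types. In untreated CD18fl/fl cells, the other dendritic cell markers had means of 21.4 (Flt3) to 279 CPM (Itgax). The macrophage markers had means of 27.0 (Mertk) to 444 CPM (Adgre1) there. Macrophage markers summed to 466 to 722 CPM in LPS-stimulated CD18CD11c cKO cells and 857 to 1059 CPM in LPS-stimulated CD18fl/fl cells, and their part in the results was not tested. In bulk RNA, fewer cells of a type and less RNA per cell cannot be told apart.

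The replicate 3 libraries of all groups stood apart from replicates 1 and 2, and same-numbered libraries deviated together, although replicates 1 and 2 also did so across numbers. Each result is therefore given from edgeR's quasi-likelihood test on the 6 libraries compared without a block, and again with the replicate number as a block where that changes the call. Adjusted p-values (Benjamini-Hochberg) are over all genes tested, with a threshold of 0.05. The genotype and LPS comparisons share libraries, so a gene's values in them are not independent of each other.

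Pigx (ENSMUSG00000023791) lies on the minus strand of chromosome 16 at 31903234 to 31918558 (GRCm39), with an annotated exon length of 1826 bases and no other gene overlapping it. Its start faces that of Cep19, a centrosome and cilium gene on the plus strand, with 59 bases between both genes. Pigf (ENSMUSG00000024145), on the minus strand of chromosome 17 at 87304684 to 87332834, has the shortest exon length of the members, 988 bases, and faces Cript in the same way across 143 bases. Of the 9 members, 2 had a protein-coding neighbour in this head-to-head arrangement within 1000 bases and 7 did not, against 9.50% of the 12803 protein-coding genes that passed the filter. The sequences between the facing genes are shown because Pigx and Pigf were the members that moved most alike and each shares this stretch with a neighbour. They are read from GRCm39 on the strand of the GPI gene, with capitals for GC boxes (GGGCGG on either strand) and CCAAT boxes (CCAAT on either strand).
Pigx to Cep19, chr16:31918559-31918617, minus strand: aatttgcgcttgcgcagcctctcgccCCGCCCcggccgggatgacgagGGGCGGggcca
Pigf to Cript, chr17:87332835-87332977, minus strand: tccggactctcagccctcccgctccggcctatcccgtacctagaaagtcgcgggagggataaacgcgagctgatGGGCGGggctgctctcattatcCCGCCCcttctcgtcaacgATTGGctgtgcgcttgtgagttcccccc
Both stretches are rich in G and C (74.6% and 62.9%) and hold 8 and 13 CpG pairs. Each contains 2 GC boxes, and neither contains a TATA box (TATAAA), an E-box (CACGTG), an ETS core (CCGGAAG) or a cAMP response element (TGACGTCA) on either strand. In RefSeq windows of 250 bases upstream of a start (GRCm38.p6), GGGCGG on either strand occurred in 32.7% of 32851 windows, and CCAAT in 33.8%. Of the 6 members with such a window, Pigx held 2 GC boxes, Pigf 3 and Pigs 1, while Piga, Pigh and Pigt held none. ETS cores occurred in 6.91% of the windows. The window of Pigf held 2 of them, those of Pigh and Pigt 1 each, and those of Piga, Pigx and Pigs none. Pigm, Pigk and Gpaa1 had no entry. A match describes these letters alone.

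Per length, Pigx had the highest mean level of the members in each group, and its 4 groups were fully separated. Untreated CD18fl/fl replicates 1, 2 and 3 gave 53.3, 39.7 and 62.9 CPM, and LPS-stimulated CD18fl/fl cells gave 89.6, 89.7 and 93.0 CPM. In CD18CD11c cKO cells, Pigx gave 104, 105 and 108 CPM without stimulation and 246, 254 and 254 CPM with LPS. The groups thus rank from untreated CD18fl/fl over LPS-stimulated CD18fl/fl and untreated CD18CD11c cKO to LPS-stimulated CD18CD11c cKO cells, and no neighbours in this order overlap. Untreated CD18fl/fl cells varied most, whereas the other groups varied by a few CPM. Between the genotypes, the log2 difference was 1.08 ± 0.21 (2.12-fold) without stimulation and 1.44 ± 0.21 (2.72-fold) with LPS, as a description of the values that chose the gene. Reads across exon junctions made up 68.1% of its reads and intron reads 0.900%, and 100% of its reads mapped uniquely.

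**Figure D1:**
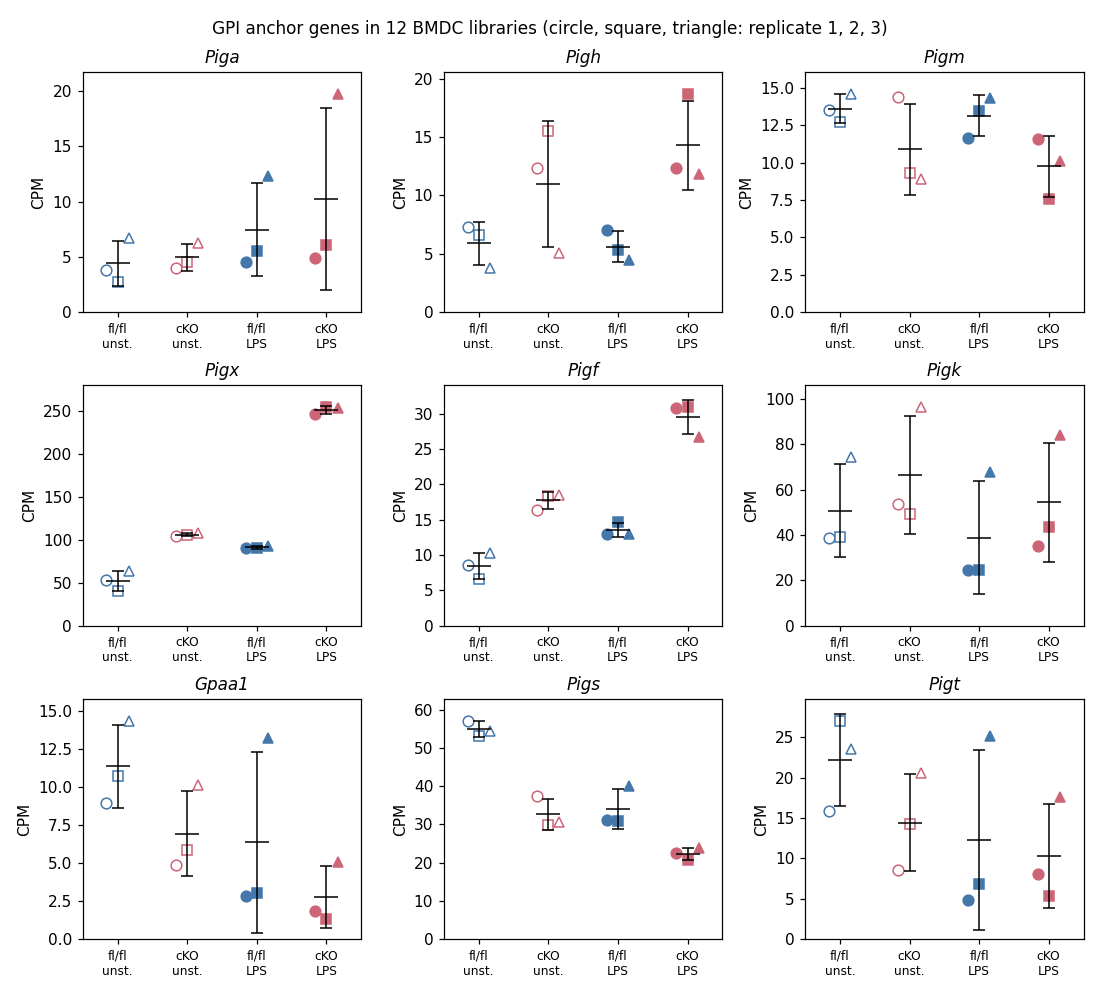
Levels of the 9 GPI anchor genes in CPM (y axis, from 0) in the 4 groups (x axis). Circles, squares and triangles are replicates 1, 2 and 3, open symbols are untreated and filled symbols LPS-stimulated cells, blue is CD18fl/fl and red CD18CD11c cKO, and bars give the mean and SD of 3 libraries. Pigx climbs from 39.7 to 62.9 CPM in untreated CD18fl/fl cells to 246 to 254 CPM in LPS-stimulated CD18CD11c cKO cells without overlap between groups, Pigf follows the same order, Pigs runs the other way, and the triangles of Piga, Pigk, Pigt and Gpaa1 lie above the other symbols in most groups.

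For Pigx, all LPS libraries lay above all untreated ones in both genotypes. The LPS response in CD18CD11c cKO cells was 1.20 ± 0.21 on the log2 scale (2.30-fold), and 1.20 ± 0.17 with the replicate block. Leaving out any 1 library kept it between 1.15 and 1.23. In CD18fl/fl cells the response was 0.81 ± 0.24 (1.75-fold), or 0.83 ± 0.22 with the block. It was 0.94 with replicates 1 and 2 alone, a choice made after seeing the data. The difference between the LPS responses of the genotypes was 0.44 ± 0.28. The reads of all 4 groups chose the gene, so these values are given without a test.

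Pigm (ENSMUSG00000050229, chromosome 1, 172204113 to 172211666, plus strand), which encodes the mannosyltransferase that PIGX stabilizes, did not follow Pigx. It is a gene of 1 exon with 7554 bases of exon sequence, and its level per length is the lowest or among the lowest of the members. Untreated CD18fl/fl replicates 1, 2 and 3 gave 13.5, 12.7 and 14.6 CPM and untreated CD18CD11c cKO cells 14.4, 9.34 and 8.93 CPM. With LPS, CD18fl/fl cells gave 11.6, 13.5 and 14.3 CPM and CD18CD11c cKO cells 11.6, 7.54 and 10.1 CPM. The genotypes overlapped without stimulation, and with LPS they just failed to overlap, the highest CD18CD11c cKO library being at 11.59 and the lowest CD18fl/fl library at 11.62 CPM. The log2 differences between genotypes were -0.27 ± 0.25 (adjusted p = 0.637) without stimulation and -0.45 ± 0.27 (adjusted p = 0.649) with LPS. The block left both short of the threshold (adjusted p = 0.345 and 0.222). The LPS responses of Pigm were -0.05 ± 0.23 in CD18fl/fl and -0.20 ± 0.32 in CD18CD11c cKO cells, neither past the threshold.

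The ratio of Pigx to Pigm therefore shifted across the groups. Per length (RPKM), Pigx exceeded Pigm by 15.7 ± 2.49 times (SD, n = 3) in untreated and 28.8 ± 2.71 times in LPS-stimulated CD18fl/fl cells. In CD18CD11c cKO cells the ratio was 42.2 ± 10.8 without stimulation and 110 ± 26.4 with LPS. The lowest ratio in untreated CD18CD11c cKO cells, 29.8, lay below the highest in LPS-stimulated CD18fl/fl cells, 31.9, and the other neighbouring groups did not overlap. Since the numerator is the gene chosen for its rise, these ratios are a description.

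Piga (ENSMUSG00000031381, chromosome X) encodes the catalytic subunit of the transferase that starts GPI synthesis, and Pigh (ENSMUSG00000021120, chromosome 12) encodes another subunit of it. Pigh stood at 7.30, 6.62 and 3.80 CPM in untreated CD18fl/fl replicates 1, 2 and 3, and at 12.4, 15.5 and 5.06 CPM in untreated CD18CD11c cKO cells. Replicate 3 was the lowest library of both groups, and the groups overlapped through it. With LPS, Pigh stood at 7.03, 5.36 and 4.45 CPM in CD18fl/fl and at 12.4, 18.7 and 11.8 CPM in CD18CD11c cKO cells, without overlap. The log2 difference between genotypes was 0.94 ± 0.48 without stimulation (adjusted p = 0.364) and 1.32 ± 0.32 with LPS (adjusted p = 0.344). With the replicate block, Pigh was higher in CD18CD11c cKO cells in both states, by 0.86 ± 0.24 (adjusted p = 0.0428) and by 1.32 ± 0.25 (adjusted p = 0.0238). With replicates 1 and 2 alone it was called without stimulation and not with LPS (adjusted p = 0.0525). Of its reads, 65.8% mapped uniquely, and it overlaps Plekhh1 on the opposite strand and the lncRNA gene 9230116L04Rik on its own. A library kit that does not mark strand cannot separate Plekhh1 reads from those of Pigh. Counting unique reads alone gave log2 differences of 0.97 and 1.25 without the block. Piga ranged from 2.71 CPM in untreated CD18fl/fl replicate 2 to 19.8 CPM in the third LPS-stimulated CD18CD11c cKO library, and replicate 3 was its highest library in every group. Its genotype groups overlapped in both states (log2 difference 0.23 ± 0.42, adjusted p = 0.821, and 0.44 ± 0.66, adjusted p = 0.874), and the block brought neither past the threshold.

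Pigf encodes a partner that some ethanolamine phosphate transferases of the pathway need. It was the gene closest to Pigx in its pattern over the 12 libraries among 13751 others (Pearson's r of log2 CPM 0.980). This is a description over libraries that share the genotype and LPS contrasts, without a correction for exon length. Pigx and Pigf are both shorter than the median of 3367 bases among genes that passed the filter. For Pigf, untreated CD18fl/fl replicates 1, 2 and 3 gave 8.52, 6.65 and 10.3 CPM, and untreated CD18CD11c cKO cells gave 16.4, 18.3 and 18.5 CPM. LPS-stimulated CD18fl/fl cells gave 13.0, 14.6 and 12.9 CPM, and LPS-stimulated CD18CD11c cKO cells 30.9, 30.9 and 26.7 CPM. All 4 groups were separated, in the same order as for Pigx. The genotype difference was 1.12 ± 0.23 without stimulation (2.18-fold, adjusted p = 0.103) and 1.10 ± 0.21 with LPS (2.14-fold, adjusted p = 0.286). With the block it passed the threshold in both, at 1.14 ± 0.20 (adjusted p = 0.00983) and 1.10 ± 0.16 (adjusted p = 0.0104), and DESeq2 without a block called it in both (adjusted p = 0.0169 and 0.023). With an offset for exon length and the block, both calls ended, at 0.52 (adjusted p = 0.107) and 0.64 (adjusted p = 0.0507). LPS responses were 0.67 ± 0.27 in CD18fl/fl (adjusted p = 0.188) and 0.68 ± 0.22 in CD18CD11c cKO cells (adjusted p = 0.132), the second being called with the block (adjusted p = 0.0435) and not with the offset and the block (adjusted p = 0.0521). Of its reads, 79.8% mapped uniquely and it overlaps Rhoq on the opposite strand. On unique reads the genotype differences were 1.04 and 1.19 without the block.

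**Figure D2:**
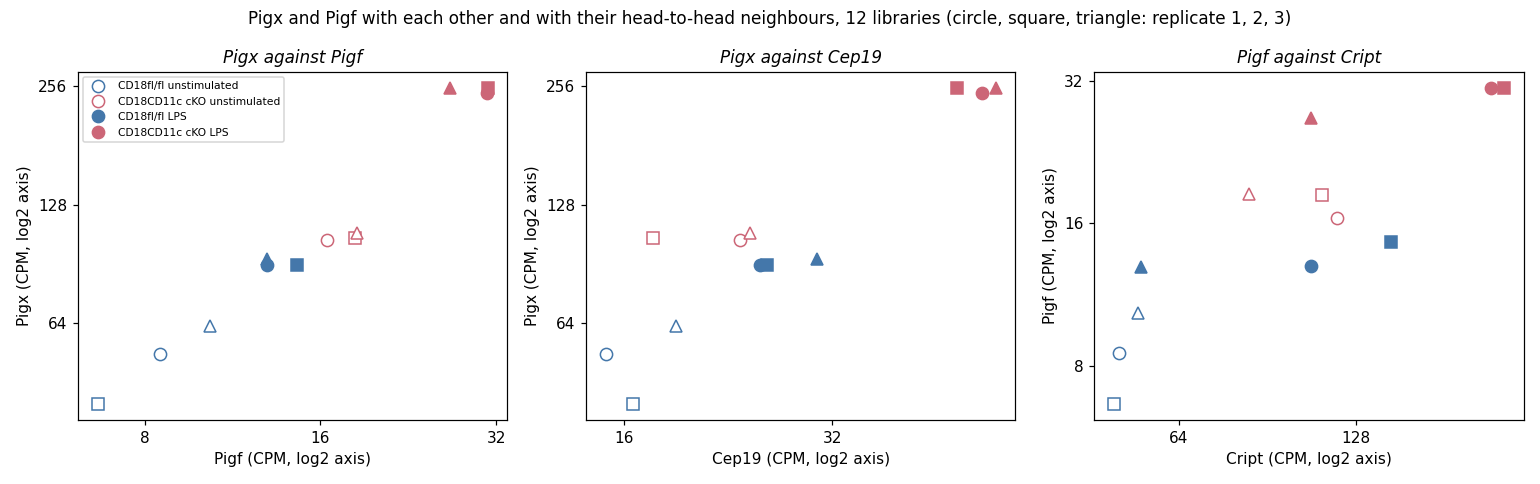
Pigx against Pigf, Pigx against Cep19 and Pigf against Cript in CPM on log2 axes, 1 point per library. Circles, squares and triangles are replicates 1, 2 and 3, open symbols untreated and filled symbols LPS-stimulated cells, blue CD18fl/fl and red CD18CD11c cKO. Pigx and Pigf fall close to 1 line (r = 0.980), Cep19 separates LPS-stimulated CD18CD11c cKO cells (48.4 to 55.2 CPM) from all others, and Cript in replicate 3 of both LPS groups lies below replicates 1 and 2.

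Of the facing neighbours, Cep19 (ENSMUSG00000035790) showed 15.0, 16.5 and 19.0 CPM in untreated and 25.2, 25.7 and 30.4 CPM in LPS-stimulated CD18fl/fl replicates 1, 2 and 3. In CD18CD11c cKO cells it showed 23.5, 17.6 and 24.3 CPM without stimulation and 52.7, 48.4 and 55.2 CPM with LPS. The untreated genotypes overlapped, and with LPS the CD18CD11c cKO libraries lay above the others. LPS raised Cep19 in CD18CD11c cKO cells by 1.21 ± 0.24 (adjusted p = 0.042). In CD18fl/fl cells the LPS response was 0.69 ± 0.22, also without overlap, and not past the threshold (adjusted p = 0.123, with the block 0.075). The difference between these LPS responses was 0.57 ± 0.28, not past the threshold. The genotype difference was 0.43 ± 0.21 without stimulation (adjusted p = 0.357) and 0.92 ± 0.21 with LPS (adjusted p = 0.325), and the second was called with the block (0.92 ± 0.15, adjusted p = 0.0141). Cep19 ranked 70 of 13751 genes in likeness to Pigx (r = 0.925). The other 5 nearest genes that passed the filter, Pak2, Senp5, Ncbp2, Nrros and Bex6, were not past the threshold without the block in any of the 4 pairwise comparisons. With the block, Nrros was lower in untreated CD18CD11c cKO cells (-0.58 ± 0.14, adjusted p = 0.0297), a call that the length offset with the block ended (-0.44, adjusted p = 0.0903). Cript, the neighbour of Pigf and named after its values were seen, was higher in CD18CD11c cKO cells with the block in both states (1.07 ± 0.16, adjusted p = 0.00608, and 0.84 ± 0.15, adjusted p = 0.019), and not without it (adjusted p = 0.0887 and 0.607). It ranked 385 in likeness to Pigf (r = 0.854).

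The transamidase subunits did not move as one. Pigk (ENSMUSG00000039047, chromosome 3) encodes the protease subunit, and Gpaa1, Pigs and Pigt encode further subunits of the complex. Pigs (ENSMUSG00000041958, chromosome 11, 78219241 to 78233608) ran opposite to Pigx. It stood at 57.2, 53.1 and 54.4 CPM in untreated CD18fl/fl replicates 1, 2 and 3, and at 37.3, 29.9 and 30.6 CPM in untreated CD18CD11c cKO cells. With LPS, Pigs stood at 31.2, 30.9 and 40.2 CPM in CD18fl/fl and at 22.5, 20.6 and 23.9 CPM in CD18CD11c cKO cells. The genotypes did not overlap in either state, while untreated CD18CD11c cKO and LPS-stimulated CD18fl/fl cells did. The genotype difference was -0.70 ± 0.18 (0.617-fold, adjusted p = 0.155) without stimulation and -0.64 ± 0.23 (0.643-fold, adjusted p = 0.453) with LPS. With the block it was called in both states, at -0.70 ± 0.14 (adjusted p = 0.0143) and -0.63 ± 0.15 (adjusted p = 0.0444). The LPS call was lost with the length offset and block (adjusted p = 0.0568) and with RLE size factors and block (adjusted p = 0.0527), and both calls with replicates 1 and 2 alone (adjusted p = 0.0609 and 0.136). LPS libraries lay below untreated ones in both genotypes, by -0.68 ± 0.22 (adjusted p = 0.122) in CD18fl/fl and -0.59 ± 0.23 (adjusted p = 0.195) in CD18CD11c cKO cells, neither past the threshold with the block. Over the 12 libraries its r with Pigx was -0.925, rank 13739 of 13751.

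For Pigk, replicate 3 was the highest library in each group. The gene overlaps St6galnac5 on the opposite strand and Gm16213, Gm16231 and Gm42710 on its own. It stood at 38.7, 39.0 and 74.4 CPM in untreated and at 24.4, 24.3 and 67.7 CPM in LPS-stimulated CD18fl/fl replicates 1, 2 and 3. In CD18CD11c cKO cells it stood at 53.8, 49.4 and 96.5 CPM without stimulation and at 35.2, 43.7 and 84.2 CPM with LPS. The genotypes overlapped through the CD18fl/fl replicate 3 libraries, and Pigk was higher in CD18CD11c cKO cells in 3 of 3 same-numbered pairs in both states. Log2 differences were 0.46 ± 0.37 without stimulation (adjusted p = 0.571) and 0.46 ± 0.53 with LPS (adjusted p = 0.832), and with the block 0.45 ± 0.14 (adjusted p = 0.0508) and 0.54 ± 0.16 (adjusted p = 0.0826). With the correction for exon length and the block, Pigk passed the threshold in both (0.76, adjusted p = 0.0167, and 0.72, adjusted p = 0.032).

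Gpaa1 (ENSMUSG00000022561, chromosome 15) had the smallest count of any member in a single library, with 30 to 538 reads per library. Piga was also low, with 108 to 611. Untreated CD18fl/fl replicates 1, 2 and 3 gave 8.99, 10.7 and 14.4 CPM, and untreated CD18CD11c cKO cells gave 4.88, 5.84 and 10.1 CPM. With LPS, CD18fl/fl cells gave 2.86, 3.01 and 13.2 CPM, and CD18CD11c cKO cells 1.82, 1.35 and 5.08 CPM. Replicate 3 was again the highest library of each group, and 13.2 CPM in the third LPS-stimulated CD18fl/fl library was close to the untreated level. LPS lowered Gpaa1 in CD18CD11c cKO cells only with the block (-1.54 ± 0.39, adjusted p = 0.0349, against -1.35 ± 0.62, adjusted p = 0.27, without it). The genotype differences, -0.65 ± 0.35 and -1.23 ± 0.81, were not past the threshold with or without the block. Pigt (ENSMUSG00000017721, chromosome 2) gave 15.9, 27.1 and 23.5 CPM in untreated CD18fl/fl and 8.54, 14.2 and 20.6 CPM in untreated CD18CD11c cKO cells. With LPS it gave 4.82, 6.84 and 25.1 CPM in CD18fl/fl and 8.10, 5.30 and 17.6 CPM in CD18CD11c cKO cells, replicate 3 again being highest. Its groups overlapped in both genotype comparisons, with log2 differences of -0.56 ± 0.37 (adjusted p = 0.485) and -0.27 ± 0.73 (adjusted p = 0.933). Pigu, the remaining subunit of the transamidase, showed -0.40 ± 0.25 and -0.90 ± 0.36 between the genotypes, neither past the threshold with or without the block.

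The calls on LPS responses in CD18fl/fl cells depended on the replicate 3 libraries. With all libraries, none of the 8 members other than Pigx was called there, with or without the block, against 3.89% of 12744 genes without and 12.8% with it. With replicates 1 and 2 alone, chosen after seeing the data, 5 of these 8 were called, against 47.5% of 12924 genes. Pigf rose (0.86), and Pigs, Pigk, Gpaa1 and Pigt fell by 0.83, 0.68, 1.75 and 1.89 on the log2 scale (largest adjusted p = 0.0113). Leaving out the third LPS-stimulated CD18fl/fl library alone gave 3 called members (Pigs, Pigt and Gpaa1) and 3268 called genes.

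**Figure D3:**
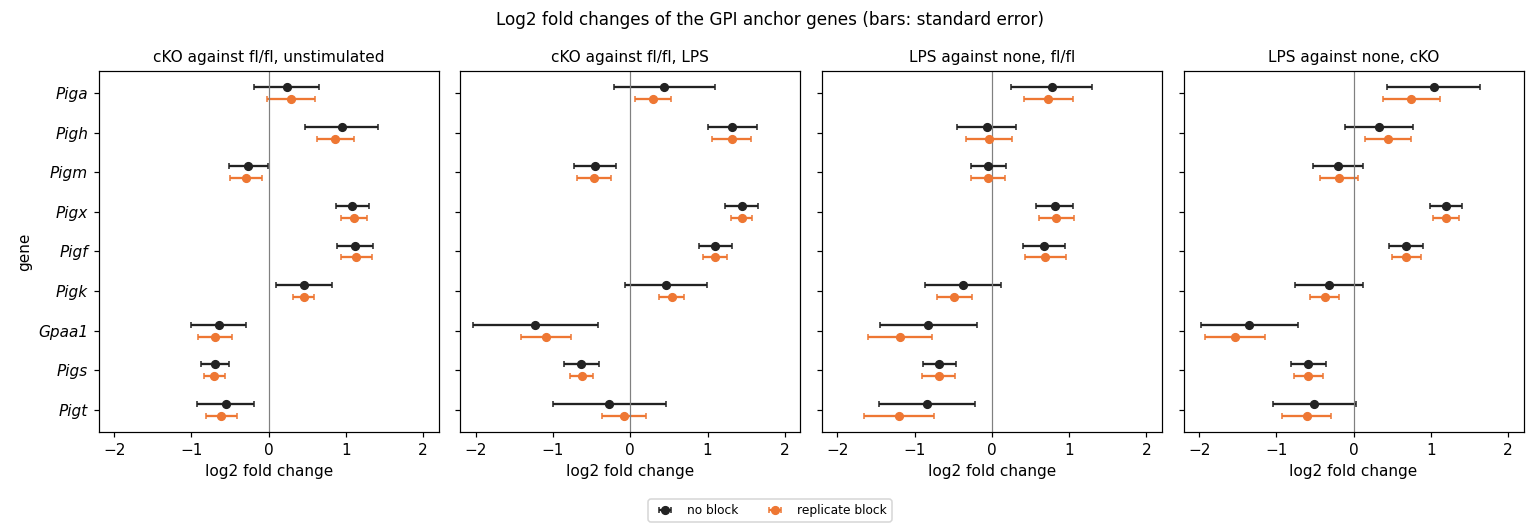
Log2 fold changes of the 9 genes (x axis) with their standard errors in the 4 pairwise comparisons, without a block (black) and with the replicate block (orange). Pigx, Pigf and Pigh lie to the right of 0 and Pigs to the left in both genotype comparisons, the block narrows the bars of most genes there, and Pigx lies farthest to the right for LPS in CD18CD11c cKO cells (1.20).

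Counted over the members, the genotype comparison gave no call without the block in either state (edgeR, background 0% of 12876 genes and 0% of 12441 genes). At an unadjusted p under 0.05, 2 of the 8 members other than Pigx were reached without stimulation and 3 with LPS, beside 2159 and 1212 of all genes, and DESeq2 called 1 of them in each state (Pigf), against 6.03% and 1.30% of the genes it tested. With the block, 3 of the 8 were called in each state, 2 higher (Pigh and Pigf) and 1 lower (Pigs). The background was 20.2% without stimulation, of which 12.1% higher and 8.16% lower, and 10.1% with LPS, of which 6.98% higher and 3.16% lower. The median log2 difference of the 8 genes was -0.02 without stimulation and 0.08 with LPS, against -0.05 and -0.11 over all genes, and 4 of 8 were positive in both states. Of the same 8, 2 did not overlap between the untreated genotypes (Pigf and Pigs), against 24.8% of all genes, and 4 did not with LPS (also Pigh and Pigm), against 17.6%. LPS separated Pigf and Pigs in both genotypes, against 29.5% of genes in CD18fl/fl and 28.1% in CD18CD11c cKO cells. In CD18CD11c cKO cells, LPS gave no call among the 8 without the block, against 3.99% of 12687 genes, and 2 with it (Pigf and Gpaa1), against 20.2%. None of the 8 had an LPS response that differed between the genotypes past the threshold (edgeR interaction over 12 libraries, background 0% of 13752 genes with 97 at an unadjusted p under 0.05, and 1 gene by DESeq2).

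The genotype differences changed with a correction for exon length. The median exon length of genes that passed the filter was 3367 bases. Pigf (988 bases) and Pigx (1826 bases) are shorter, whereas Pigm (7554 bases) and Pigk (8330 bases) are longer. With an offset for exon length and the block, which called 12% of all genes without stimulation and 7.14% with LPS, the difference of Pigf in untreated cells was 0.52 (adjusted p = 0.107), and with LPS 0.64 (adjusted p = 0.0507), so both calls of Pigf with the block were lost. The difference of Pigx was 0.86 without stimulation and 1.33 with LPS under the same offset. Pigh remained called in both states (0.95, adjusted p = 0.0466, and 1.44, adjusted p = 0.0188). Pigs remained called without stimulation (-0.78, adjusted p = 0.0156) and not with LPS (-0.60, adjusted p = 0.0568). Cep19 remained called between the LPS-stimulated genotypes (0.79, adjusted p = 0.0244). Cript, also short at 1184 bases, lost its calls between the genotypes (0.54, adjusted p = 0.0537, and 0.47, adjusted p = 0.0981). The LPS response of Pigx with the offset and the block was 0.80 in CD18fl/fl and 1.24 in CD18CD11c cKO cells, as a description.

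**Figure D4:**
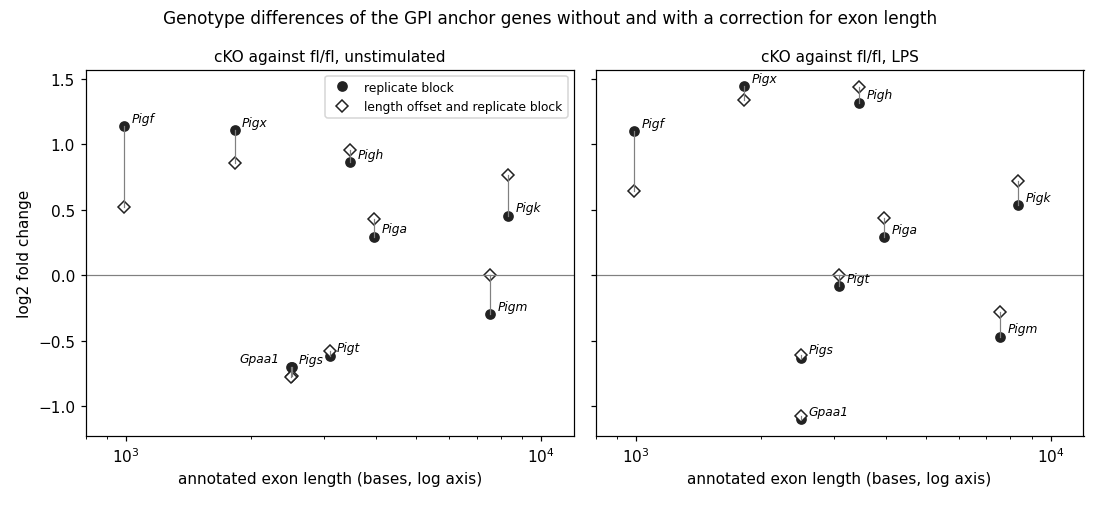
Log2 genotype difference (y axis) of the 9 genes against their annotated exon length in bases (x axis, log scale), untreated at the left and LPS-stimulated at the right. Filled circles are from the fit with the replicate block, open diamonds from the fit with the length offset and the block, and grey lines join both values of a gene. Pigf, the shortest, drops from 1.14 to 0.52 in untreated cells, while Pigm and Pigk, the longest, move up.

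Compared per length, the order of the members also differed by group. In untreated CD18fl/fl cells, Pigx led with 28.5 ± 6.37 RPKM (SD, n = 3), overlapping Pigs at 21.9 ± 0.832, and Pigf, Pigt, Pigk and Gpaa1 followed at 8.61 to 4.54 without separation between neighbours. Pigm, Pigh and Piga were lowest, at 1.80, 1.71 and 1.11 RPKM, and overlapped. In LPS-stimulated CD18CD11c cKO cells, Pigx led with 137 ± 2.56 RPKM, clear of Pigf at 29.9 ± 2.46, which was clear of Pigs at 8.93 ± 0.652. Gpaa1 was lowest there, at 1.10 ± 0.811 RPKM, overlapping Pigm at 1.29 ± 0.271. Pigs, level with Pigx in part of the untreated CD18fl/fl libraries, stood below Pigf in both CD18CD11c cKO groups without overlap.

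After Pigf, the genes most like Pigx over the 12 libraries, again without a correction for exon length, were Hsbp1 (r = 0.971), Sec61g (0.966), Nxt2 (0.965) and Hint3 (0.961). For Pigm, they were Zfp605 (0.911), Abcf2 (0.889), Spa17 (0.883), the GPI pathway gene Pign (0.855) and Srp54a (0.852). Pigx ranked 13242 of 13751 in likeness to Pigm (r = -0.605). Spa17 rests on few reads, at 1.46 CPM or below in every library.

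Of 25 further genes of the pathway, listed by their known roles, 23 were tested in each pairwise comparison, and none was called without the block. With the block, 4 were higher and 1 lower in untreated CD18CD11c cKO cells, 5 of 23 beside 20.2% of all genes (12.1% higher and 8.16% lower). Pigyl and Pigp, named for subunits of the transferase that starts synthesis, were higher by 1.18 ± 0.15 (adjusted p = 0.00366) and 1.01 ± 0.15 (adjusted p = 0.00535), as were Dpm1 (0.84 ± 0.18, adjusted p = 0.0206) and Dpm3 (0.65 ± 0.16, adjusted p = 0.0271), which encode subunits of the synthase of the mannose donor. Pigq, another subunit of the transferase, was lower (-0.69 ± 0.20, adjusted p = 0.0492). Dpm2 gave 0.15 ± 0.19 (adjusted p = 0.601). With the length offset and block, Pigp (0.80, adjusted p = 0.0163) and Dpm1 (0.76, adjusted p = 0.0378) remained called, whereas Pigyl (0.45, adjusted p = 0.103), Dpm3 (-0.05, adjusted p = 0.861) and Pigq (-0.52, adjusted p = 0.114) did not. The median over the 23 genes was 0.02 against -0.07 over all genes. With LPS, Pigp (1.36 ± 0.16, adjusted p = 0.00708) and Pigyl (0.88 ± 0.17, adjusted p = 0.0245) were higher with the block, 2 of 23 beside 6.98% of all genes, and the median was -0.06 against -0.09. Pigp remained called with the length offset and block (adjusted p = 0.0101) and Pigyl did not (0.32, adjusted p = 0.309). In response to LPS, 2 of 23 were called with the block in CD18fl/fl and 4 of 23 in CD18CD11c cKO cells, beside 12.8% and 20.2% of all genes. Pgap1, which remodels the anchor's lipid after attachment, was lower with the block in CD18fl/fl (-1.79 ± 0.25, adjusted p = 0.0109) and in CD18CD11c cKO cells (-2.33 ± 0.33, adjusted p = 0.00518). Pgap2, also of lipid remodelling, was higher in both (0.94 ± 0.20, adjusted p = 0.0359, and 0.65 ± 0.17, adjusted p = 0.0424), and Pigc (1.14 ± 0.23, adjusted p = 0.0168) and Pigyl (1.02 ± 0.27, adjusted p = 0.0385) were higher in CD18CD11c cKO cells.

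Several genes for proteins that carry a GPI anchor were called for LPS without the block. Of 42 listed, 28 were tested in CD18fl/fl cells, and 3 rose without the block, beside 2.06% of all genes. Ly6i rose from 6.51 ± 1.69 to 159 ± 19.4 CPM (log2 4.61 ± 0.31, adjusted p = 0.00989), Vnn3 by 5.64 ± 0.72 (adjusted p = 0.0162) and Bst2, the tetherin gene, by 1.85 ± 0.25 (adjusted p = 0.0175). In CD18CD11c cKO cells, 4 of 26 rose without the block, beside 2.23% of all genes, among them Ly6i (3.73 ± 0.41, adjusted p = 0.0124), Vnn3 (6.19 ± 0.85, adjusted p = 0.0203) and Bst2 (1.57 ± 0.27, adjusted p = 0.0313). With the block, 6 of 28 were higher and 1 lower with LPS in CD18fl/fl cells, beside 6.33% and 6.43% of all genes. In CD18CD11c cKO cells, 9 of 26 were higher and 3 lower with the block, beside 10.2% and 9.93%. Plaur, the urokinase receptor, was lower with the block in both (-1.86 ± 0.23, adjusted p = 0.00811, and -1.57 ± 0.23, adjusted p = 0.00557). Between the untreated genotypes, 5 of 28 were higher and 5 lower with the block, beside 12.1% and 8.16% of all genes, and 0 were called without it. With the length offset and block, 0 were higher and 4 lower (7.64% and 4.37% of all genes), and with replicates 1 and 2 alone 0 of 30 were higher and 3 lower (7.91% and 2.67%), so no gene of the list kept a call as higher under either. Cd59a, a complement inhibitor, stood at 4.30 ± 0.593 and 9.28 ± 2.70 CPM in CD18fl/fl and CD18CD11c cKO cells (1.14 ± 0.27 with the block, adjusted p = 0.0268), and Cd48 was also higher (0.73 ± 0.19, adjusted p = 0.0325), as was Ly6d (1.54 ± 0.30, adjusted p = 0.0178), which was listed at 0 in 1 library or more of both groups. With the length offset and block they stood at 0.88 (adjusted p = 0.073), 0.21 (adjusted p = 0.527) and 0.74 (adjusted p = 0.172). Gpc1 (-0.70 ± 0.15, adjusted p = 0.0177), Mmp25 (-0.75 ± 0.18, adjusted p = 0.0288) and Sema7a (-0.57 ± 0.15, adjusted p = 0.0374) were lower, of which Gpc1 alone remained called with the offset (-0.55, adjusted p = 0.0405). With LPS, 3 of 26 were lower in CD18CD11c cKO cells with the block, beside 3.16% of all genes, namely Ly6e (-0.94 ± 0.18, adjusted p = 0.0233), Ly6a (-0.77 ± 0.17, adjusted p = 0.0353) and Ly6i (-0.94 ± 0.23, adjusted p = 0.0455), and none was higher. With replicates 1 and 2 alone, none of the list was called there.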

How the data were processed

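Total RNA of 12 BMDC samples was made into poly(A)-selected libraries with a kit that does not mark strand and sequenced as single-end reads. The authors trimmed the reads and mapped them to GRCm39 with the default settings of the CLC Genomics Workbench (the submitters' processing notes name GRCm38, and gene positions in the tables are those of GRCm39), and deposited 1 table per sample with raw counts per gene (total, unique, exon, intron and junction reads), exon length and RPKM. The Ensembl release is not given in the sources used here. The deposited RPKM columns were not used for tests, and RPKM given here is CPM per 1000 bases of exon length.

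Total gene reads, 95.1% to 96.2% of them unique, were tested in edgeR 4.0.16 (R 4.3.3) by the quasi-likelihood test on all genes passing filterByExpr (minimum count 10) after TMM normalization, on the 6 libraries of each comparison or, for the interaction, all 12. The SE of a log2 difference from edgeR was its absolute value divided by the square root of the test's F statistic. For Pigx, it is given as a description and not as a test. The study's methods name DESeq2 and state no design formula. Pigx was chosen from the reads of all 4 groups, so it is left out of every count of called members. Members and lists were chosen with earlier results of these data known. Named genes were the members, Itgb2, remaining complex subunits, up to 3 list genes per direction and comparison by p, the 5 genes most like Pigx and Pigm, and 3 neighbours of Pigx on each side. Cript was added after its values were seen. Replicate numbers from the labels were treated as pairing the libraries, since same-numbered libraries deviated together in every comparison (correlations of deviations 0.265 to 0.716). Replicates 1 and 2 also correlated across numbers, at 0.154 to 0.334. For LPS in CD18fl/fl cells, untreated replicate 1 with LPS replicate 2 (0.278) exceeded the matched replicate 2 pair (0.265). Pairs of replicate 3 with replicates 1 or 2 were negative. The correlations thus set replicate 3 apart and do not settle whether replicates 1 and 2 pair by number. The length offset was a smooth curve (span 0.3) of log counts on exon length in each library. The alternatives were DESeq2 1.42.0, RLE size factors, no filter, unique reads, the block, the length offset, each library left out, replicates 1 and 2 alone, and plain library sizes. The scripts were tested on simulated data. Of the 66 pairs of libraries, none agreed within counting error (lowest chi-squared per degree of freedom 43.5). Pigy and Dpep2 were listed and not analysed here.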

Additional observations from a re-analysis of the deposited data

How the results depend on the processing

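Between the genotypes, no member or gene was called in untreated cells without the block. The members other than Pigx called there were 3 with the replicate block, 3 with the length offset and block, 3 with RLE size factors and block, 1 with DESeq2, and, as choices added after seeing the data, 2 with replicates 1 and 2 alone and 5 with plain library sizes and block (1 higher, 4 lower). Over all genes these were 2606, 1547, 2669, 538, 1383 and 4583 (701 higher, 3882 lower). With LPS the members called were 3, 2, 2, 1, 1 and 4, and all genes 1262, 888, 1226, 150, 523 and 2642, with 1 gene called without the filter. For LPS in CD18fl/fl cells, 0 members other than Pigx and 496 genes became 0 and 1627 with the block, 0 and 1802 with the length offset and block, 0 and 1689 with RLE and block, 0 and 1794 with DESeq2, 5 and 6140 with replicates 1 and 2 alone, and 1 and 1621 with plain library sizes and block. For LPS in CD18CD11c cKO cells, 0 members and 506 genes became 2 and 2560, 1 and 2566, 2 and 2580, 0 and 1531, 1 and 2049, and 2 and 2748 in the same order, with 805 genes without the filter. DESeq2 called 1 gene for the interaction.

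Leaving out 1 library gave 0 to 1 genes between the LPS-stimulated genotypes, 0 to 3 members and 0 to 3268 genes for LPS in CD18fl/fl, and 0 members and 0 to 1033 genes for LPS in CD18CD11c cKO cells. In CD18fl/fl cells, no gene was called without either of the untreated replicates 1 and 2 or of the LPS replicates 1 and 2. For LPS in CD18CD11c cKO cells, 0 and 4 genes were called without untreated replicates 1 and 2, and 26 and 2 without LPS replicates 1 and 2.

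Plain library sizes with the block moved the median of all genes to -0.46 (untreated) and -0.34 (LPS) between the genotypes and to -0.36 and -0.23 for LPS, against -0.07, -0.09, -0.03 and -0.01 with TMM and block. Genotype differences with plain library sizes and block lay above the medians of -0.46 and -0.34 for Pigx (0.71 and 1.19), Pigf (0.75 and 0.85) and Pigh (0.47 and 1.06). Those of Pigs (-1.09 and -0.88) lay below them.

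Signs turned for values that were not past the threshold. With the length offset and block, Pigm (0.0049) turned between the untreated and Pigt (0.0058) between the LPS-stimulated genotypes, Pigh (0.030) and Pigm (0.091) for LPS in CD18fl/fl cells, and Piga (-0.0071) and Pigk (-0.087) in the interaction. Plain library sizes with block turned Piga between untreated genotypes (-0.10), and replicates 1 and 2 alone turned Pigt between LPS-stimulated genotypes (0.17) and Piga (-0.33) and Pigf (-0.087) in the interaction. Leaving out 1 library gave ranges across 0 between the genotypes for Piga (-0.021 to 0.64 untreated, -0.50 to 1.01 with LPS), Pigk (-0.033 to 1.13 with LPS) and Pigt (-0.93 to 0.81 with LPS). For LPS in CD18fl/fl cells they were -0.31 to 0.11 for Pigh, -0.12 to 0.033 for Pigm and -1.05 to 0.0024 for Pigk, and in CD18CD11c cKO cells -0.016 to 0.67, -0.32 to 0.029 and -0.85 to 0.056. In the interaction they were -0.62 to 0.77 for Piga, -0.28 to 0.15 for Pigm, -0.19 to 0.13 for Pigf, -0.37 to 0.66 for Pigk, -1.30 to 0.54 for Gpaa1, -0.0053 to 0.25 for Pigs and -0.26 to 1.36 for Pigt. In the edgeR fits without the block, which the alternatives were set against, no tested member was called, so no call could be lost. Of the member values under alternatives, Pigx included, 621 kept direction and, apart from Pigx, side of the threshold. Another 47 passed it only under the alternative, and 43 changed sign. Of Pigx, given without a test, 18 values moved by more than the replicate spread. The cause of these changes was not tested. With 3 libraries a group, an exact permutation test of 1 gene cannot go below 0.1.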
